A study of Mus musculus with 6 samples.

Results

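The genes described here are 41 genes of innate RNA sensing and of the type I interferon response, taken by name from a given list and followed across 6 RNA-seq libraries of the mouse hepatoma line Hepa1-6. All 41 have at least 1 row among the 38828 genes of the deposited tables, and 33 of them had enough counts to enter the test, which covered 11616 genes. The list holds 8 sensors and adaptors, 8 receptors and transcription factors, 23 effectors and feedback regulators, and 2 genes of antigen presentation.

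Hepa1-6 cells, an established line that serves as a liver cell model, were transfected for 3 days with siRNA in the lipid reagent Lipofectamine RNAiMAX. The control group of 3 libraries received siRNA against Renilla luciferase (Luc siRNA), a gene that mouse cells lack, and the other 3 libraries received siRNA against Crebl2 (Crebl2 siRNA), a bZIP protein of the wider CREB family. Every library therefore comes from cells that were given lipid and a short RNA duplex, and libraries of untransfected or mock-transfected cells were not analysed here. The labels name 1 cell line, do not say how many siRNAs were used per target, and leave unstated whether each library is its own culture. All p-values below thus rest on the spread among these 6 libraries, part or all of which may be technical.

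Cells recognise foreign RNA by where it lies and how it looks. RIG-I and MDA5 bind RNA duplexes in the cytosol and signal through MAVS on mitochondria, Toll-like receptor 3 binds them in endosomes, and the kinase PKR answers them by shutting down translation. MAVS signalling activates the factors IRF3 and IRF7 and switches on interferon genes, and secreted interferon acts through IFNAR1 and IFNAR2 on a complex that holds STAT2 and IRF9, which binds interferon-stimulated response elements and raises a large set of antiviral genes, among them the sensors themselves. Synthetic RNA duplexes are known to be able to enter this pathway, which is why the comparison of siRNA treatments bears on these genes.

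Interferon-stimulated response elements carry repeats of GAAA with a short gap, and 4 promoters are shown because the genes behind them differ in how they responded while sharing this letter pattern. The pattern GAAANNGAAA was searched on both strands, with overlapping matches allowed, in windows of 300 bases that run from 250 before to 50 after the start of each gene (RefSeq, GRCm38.p6). It was present in the window of 14 of the 33 genes of the list that have a window (42.4%), against 1079 of all 27025 genes with a window (3.99%) and 1131 of all 32851 windows (3.44%). The stretches below are printed 5′ to 3′ on the strand of the gene, with every match in capitals and flanks of 20 bases in lower case. Capitals that start with TTTC are the same pattern read on the other strand.
Rsad2, chr12:26456543-26456592, minus strand: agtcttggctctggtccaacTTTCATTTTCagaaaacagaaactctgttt
Bst2, chr8:71537567-71537622, minus strand: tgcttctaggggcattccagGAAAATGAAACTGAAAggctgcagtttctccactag
Isg15, chr4:156200855-156200916, minus strand: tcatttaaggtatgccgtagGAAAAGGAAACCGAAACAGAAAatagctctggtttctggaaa
Ifit1, chr19:34640765-34640833, plus strand: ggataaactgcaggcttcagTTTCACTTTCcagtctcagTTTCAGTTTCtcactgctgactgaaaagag
Rsad2 holds 1 match, Bst2 and Ifit1 hold 2 each, and Isg15 holds 3 that overlap. Rsad2 was raised by Crebl2 siRNA and Bst2 lowered, while the change of Isg15 and of Ifit1 did not pass the test. Among genes of the list with a window, the pattern stood in 1 of 3 raised genes (Rsad2), 4 of 6 lowered genes (Ddx58, Bst2, Ifitm2 and Ifitm3) and 8 of 17 genes that did not pass. The related pattern TTCNNNGAA, the core of sites for STAT proteins, was present in 11 of the 33 windows (33.3%), against 9.55% of all genes with a window and 8.3% of all windows. Parp9, Parp14, Dhx58, Usp18, Ifi27l2a, Ifi27l2b, Mx1 and Mx2 have no window in the table. A match describes the letters of a window and is not evidence of a bound site.

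Crebl2 itself was lower in every Crebl2 siRNA library, with 813, 826 and 896 counts against 3248, 3162 and 3041 (log2 fold change -1.90, adjusted p = 2.83e-12, edgeR's quasi-likelihood test). Libraries held 27082572 to 29158489 counts. Mitochondrial transcripts took 2.09% to 2.52% of counts in 5 libraries and 0.859% in Crebl2 siRNA replicate 2, so results are also given without that library. Hepatoma transcripts were abundant, with Alb at 581 and Afp at 278 counts per 1000000 counts (CPM) in the controls, although Hnf4a, Apoa2 and Serpina1a are listed at 0. Among markers of immune cells, Ptprc, Itgam and Marco of macrophages and Siglech and Ccr9 of plasmacytoid dendritic cells had no counts, and the 10 markers of T, B and NK cells had at most 8 counts in a library. The list of 7 plasmacytoid dendritic cell markers summed to 307 to 339 CPM after Luc siRNA and 265 to 282 after Crebl2 siRNA, through Bst2, Irf8 (34.2 and 47 CPM on average) and Tcf4 (12.3 and 12.7 CPM), which other cells express too. Of the 10 macrophage markers 4 were tested and 2 fell, Cd14 (36.2 ± 1.02 to 23.7 ± 2.15 CPM, SD, n = 3 each) and Lyz2 (log2 fold change -0.84), with a summed level of 37.7 to 40.4 CPM after Luc siRNA and 23.7 to 28.2 after Crebl2 siRNA. The markers of fibroblasts (224 to 236 against 178 to 197 CPM, of which Dcn fell from 171 to 117 CPM and Des rose from 49.1 to 62.4 CPM on average) and endothelial cells (19.8 to 23.1 against 33.3 to 37.4 CPM, nearly all Vwf) also differed, although Pdgfrb, Col3a1 and Reln were at 0, and their part in the results was not tested. The labels name 1 cell line, so these values do not show that other cell types were present. In bulk RNA, fewer cells of a type and less RNA per cell cannot be told apart. The bases that each marker shares with no other transcript are not given here, so a marker at 0 may be uncounted rather than absent.

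Counts follow the bases that a transcript shares with no other transcript. Of 9603 rows without such a base, 0.531% had any count, against 63.1% of 32457 rows with at least 200 of them. This bears on what can be said of several genes of the list: Stat2, Mx2, Oasl1 and Adar were at 0 in all 6 libraries with 3, 8, 80 and 129 bases of their own, so the 0 says little about their expression. Tlr3, with 4 counts in all, and Trim25, with 47, have 131 and 164 such bases in their main row and were not tested either, and neither were Irf3 and Ifitm1, with 26 and 11 counts in all. Levels are therefore compared between genes only as CPM per kilobase of the bases unique to the main transcript.

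The interferon ligands were at the limit of detection in both groups. Of 9 ligand genes (Ifnb1, Ifna1, Ifna2, Ifna4, Ifne, Ifnk, Ifnl2, Ifnl3 and Ifng), 5 had no counts, none had more than 3 in a library, and none could be tested. Ifnb1, the interferon that most non-immune cells make first, had 2, 0 and 0 counts after Luc siRNA and 1, 2 and 3 after Crebl2 siRNA, with all 750 bases of its transcript its own. The ratio of the summed counts, scaled for library size, was 3, with a 95% exact binomial interval of 0.537 to 30.4. A difference in Ifnb1 was not detectable at this depth, where a count of 0 allows up to 3 counts, or 0.105 to 0.111 CPM.

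Many interferon-stimulated genes nevertheless had clear levels in the controls, which were themselves transfected with siRNA (the plot of levels per kilobase). There B2m, the light chain of class I molecules, stood highest at 1967 CPM per kilobase. Bst2, which tethers budding virions to the membrane, followed at 349, then Ifitm3 at 301 and Ifitm2 at 281, which hinder viral fusion, and Usp18 at 138. The sensor Ddx58 stood at 56.3, Ifit2 at 20.6, and Isg15, Rsad2 and Dhx58 between 2.73 and 3.14. Ifit1 at 0.256 and Ifit3 at 0.234 were near the bottom, although they are among the genes that interferon is known to raise most. Ifitm2 and Ifitm3 lay close in this order, and so did Ddx58, Irf2 (57.8) and Ifnar1 (55.8). This scale takes no account of sequence that recurs in other genes. Of the stretches of 50 bases in Ifit3, 51.2% recur in Ifit3b, and 48.5% of those in Ifitm2 recur in other gene models. The levels of Ifit3 and Ifitm2 are therefore uncertain.

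**Figure D1:**
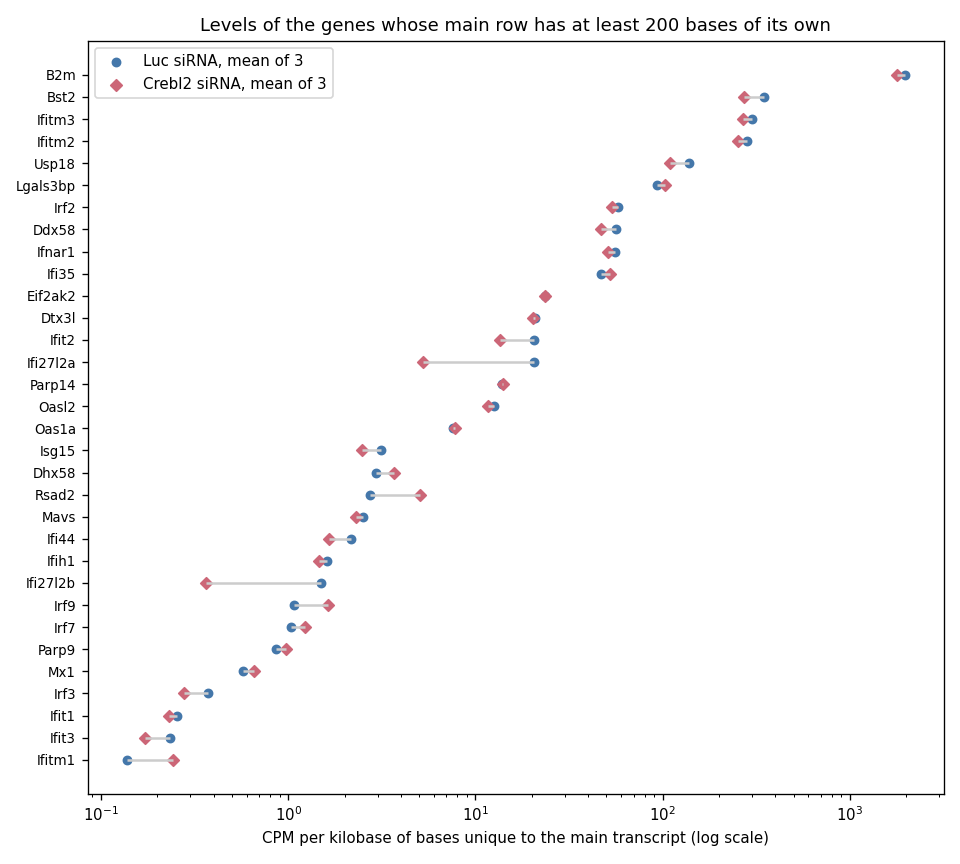
Mean level of each gene in Luc siRNA (circles) and Crebl2 siRNA (diamonds) libraries, as CPM per kilobase of bases unique to its main transcript, on a log axis, for genes with at least 200 such bases. B2m stands highest at 1967 in the controls, Ifit1 and Ifit3 lie near 0.2, and the longest lines between the groups belong to Ifi27l2a and Ifi27l2b.

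Of the 33 tested genes, 13 changed at an adjusted p under 0.05 (39.4%), which is close to the share of all tested genes that changed (38.9%). Crebl2 siRNA lowered 9 of them (27.3%, against 20.1% of all tested genes) and raised 4 (12.1%, against 18.8%). Their median log2 fold change was -0.12, with a range of -2.04 to 0.89, and that of all tested genes was 0.01. The groups did not overlap for 14 of the 33 (42.4%, against 48.8% of all), and 2 changed by at least 2-fold, against 3.86% of all. The list as a whole thus changed about as often as other genes, and its members moved in both directions. Without Crebl2 siRNA replicate 2, 6 genes were lowered and 3 raised (17.6% and 8.82%, against 16.2% and 14.8% of all tested genes). Without Luc siRNA replicate 3, 6 were lowered and 2 raised, for a total of 8 (18.2% and 6.06%, against 16.5% and 14.3%). In both settings, the lowered share of the list was close to that of all genes.

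**Figure D2:**
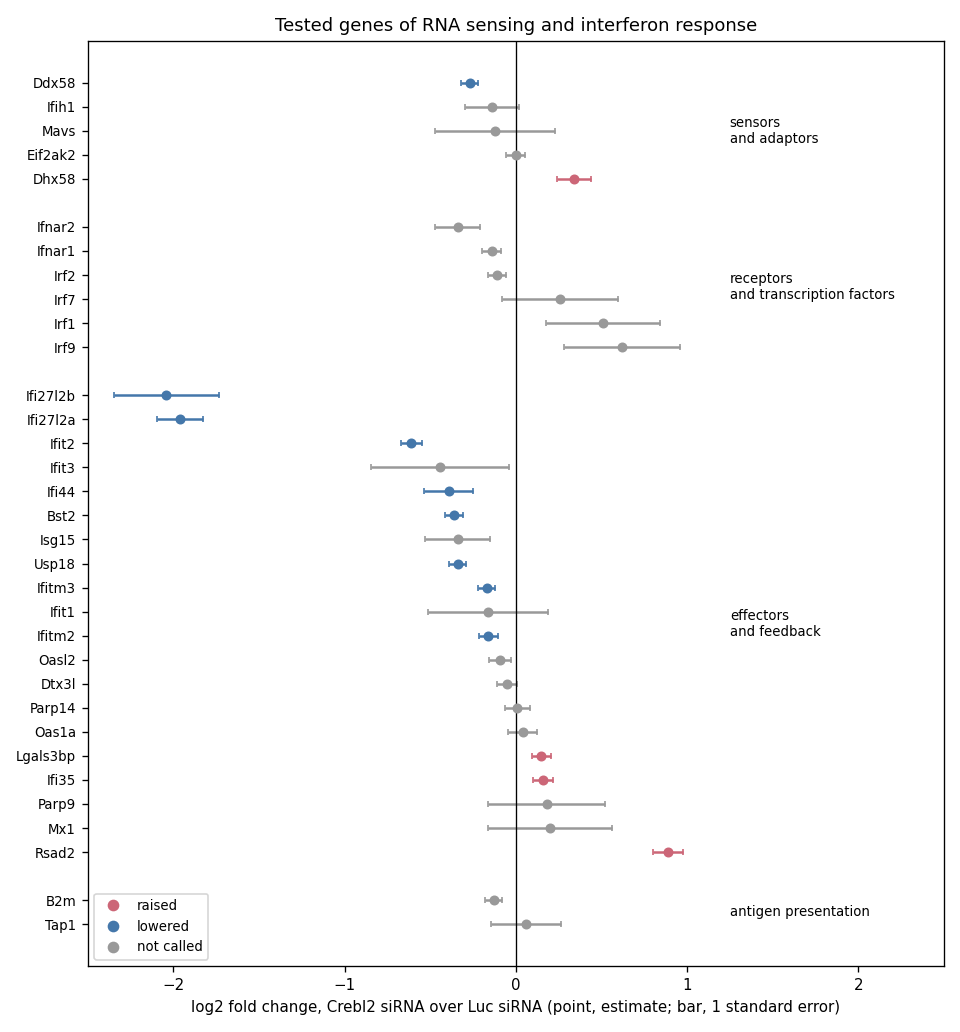
Log2 fold change (Crebl2 siRNA over Luc siRNA) of the 33 tested genes by role, with bars of 1 standard error and colour for the call at an adjusted p under 0.05. Ifi27l2b and Ifi27l2a lie near -2, Rsad2 at 0.89, and no receptor, transcription factor or antigen presentation gene passed the test.

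Among the cytosolic sensors, RIG-I and LGP2 moved in opposite directions. Ddx58, which encodes RIG-I, had 6300, 5902 and 6008 counts after Luc siRNA and 4981, 5055 and 5053 after Crebl2 siRNA. Every Crebl2 siRNA library was below every control, and the mean went from 218 ± 5.66 to 181 ± 2.21 CPM (n = 3 each, ± SD; log2 fold change -0.27, SE 0.0473, adjusted p = 0.000266, edgeR's quasi-likelihood test). Dhx58, which encodes LGP2, a relative of RIG-I without the domains that signal to MAVS, had 187, 189 and 179 counts against 242, 230 and 228. Here every Crebl2 siRNA library was above every control, with means of 6.64 ± 0.113 and 8.39 ± 0.239 CPM (n = 3 each, ± SD; log2 fold change 0.34, SE 0.0996, adjusted p = 0.0131, edgeR's quasi-likelihood test).

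The other sensors and the adaptor did not pass the test. Eif2ak2, the kinase PKR, was measured with high precision at 97.1 ± 1.09 and 97.4 ± 6.61 CPM (SD, n = 3 each), a log2 fold change of 0.00 with an SE of 0.0565. Ifih1, which encodes MDA5, had 83, 86 and 81 counts against 63, 77 and 86, so its groups overlapped (log2 fold change -0.14, SE 0.158). Mavs had 0.574 ± 0.0213 and 0.528 ± 0.261 CPM (SD, n = 3 each), and its SE of 0.352 leaves room for changes in both directions. Of the 8 sensors and adaptors, 5 were tested, 1 was raised and 1 lowered (20% each, against 18.8% and 20.1% of all tested genes), with a median log2 fold change of -0.12.

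None of the 6 tested receptors and transcription factors passed the test, and their median log2 fold change was 0.07. The receptor chain Ifnar1 was at 63.6, 65.7 and 61.3 CPM after Luc siRNA and 57.1, 56.4 and 59.7 after Crebl2 siRNA. Those groups did not overlap, yet the adjusted p was 0.0627 by edgeR's quasi-likelihood test (log2 fold change -0.14), and it was 0.0247 without Crebl2 siRNA replicate 3. Its partner Ifnar2 had 146, 190 and 193 counts against 137, 136 and 144, which overlap (log2 fold change -0.34, adjusted p = 0.0503, edgeR's quasi-likelihood test), and the adjusted p was 0.00652 without Luc siRNA replicate 1. Ifnar2 overlaps the gene model Gm21970 on its strand, and 25.3% of its 50-base words recur there, so its counts are uncertain.

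Of the interferon regulatory factors, Irf2 alone was measured with many counts. Irf2, which competes with Irf1 at shared sites, was at 113 ± 0.336 and 105 ± 3.4 CPM (SD, n = 3 each); the groups did not overlap, and the log2 fold change of -0.11 had an adjusted p of 0.0905 by edgeR's quasi-likelihood test. Irf9, the DNA-binding part of the complex that holds STAT2, had 12, 14 and 15 counts against 12, 28 and 23, which overlap. Its log2 fold change of 0.62 (SE 0.34) had an adjusted p of 0.168 by edgeR's quasi-likelihood test, and one of 0.0372 without Crebl2 siRNA replicate 1. Irf1 (0.51, SE 0.331) and Irf7 (0.26, SE 0.339), the factor that amplifies interferon production, rest on under 100 counts over all libraries and were not called.

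The effectors held 11 of the 13 changes: of 20 tested, 8 were lowered and 3 raised (40% and 15%, against 20.1% and 18.8% of all tested genes), with a median log2 fold change of -0.16. With library size alone 5 were lowered and 3 raised, where 16.5% of all tested genes were lowered and 23.6% raised. Without Crebl2 siRNA replicate 2 these counts were 5 and 2, where 16.2% of all tested genes were lowered and 14.8% raised. The plot of called genes by library shows them beside the sensors Ddx58 and Dhx58.

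**Figure D3:**
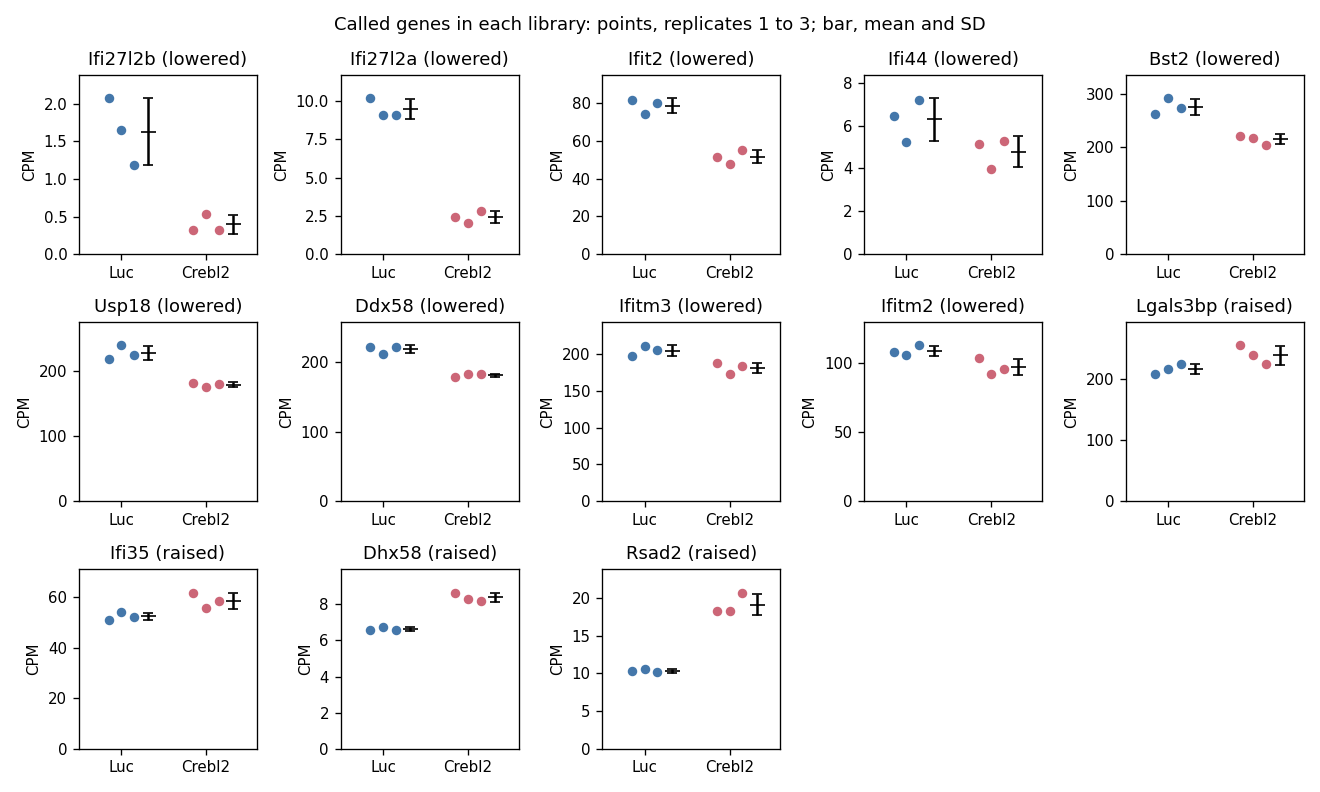
CPM of the 13 called genes in each library (points, replicates 1 to 3 from left to right), with mean and SD of each group as black bars and all axes starting at 0. Groups overlap only for Ifi44 and Lgals3bp, and the widest separations are those of Ifi27l2a, Ifi27l2b, Ifit2 and Rsad2.

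The largest falls were those of Ifi27l2a and Ifi27l2b, neighbours on chromosome 12 that encode small hydrophobic interferon-inducible proteins. Ifi27l2a (chr12:103442167-103443680, minus strand, GRCm38) had 292, 254 and 247 counts after Luc siRNA and 68, 56 and 79 after Crebl2 siRNA. No Crebl2 siRNA library came near the lowest control count, and the mean went from 9.48 ± 0.653 to 2.43 ± 0.416 CPM (SD, n = 3 each; 3.89-fold lower, log2 fold change -1.96, SE 0.134, adjusted p = 1.18e-08, edgeR's quasi-likelihood test). Ifi27l2b (chr12:103450898-103457223, minus strand) had 59, 46 and 32 counts against 9, 15 and 9, again without overlap (1.63 ± 0.444 and 0.396 ± 0.125 CPM, n = 3 each, ± SD; log2 fold change -2.04, SE 0.305, adjusted p = 5.79e-05, edgeR's quasi-likelihood test). Summed counts after Crebl2 siRNA were 0.256 of the controls for Ifi27l2a (95% interval 0.219 to 0.299) and 0.241 for Ifi27l2b (0.16 to 0.355), intervals that cover counting error only. The transcripts are 78.3% identical over 438 aligned bases, but only 2 of their 50-base words are shared. The third gene of the cluster, Ifi27, had no counts, but the bases of its own are not given here, so the 0 says little about its expression.

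Rsad2 rose most. It encodes viperin, an enzyme that makes a chain-terminating ribonucleotide (chr12:26442746-26456452, minus strand, GRCm38). It had 295, 294 and 274 counts after Luc siRNA and 510, 508 and 575 after Crebl2 siRNA. The lowest Crebl2 siRNA library was far above the highest control, and the mean went from 10.3 ± 0.213 to 19.1 ± 1.42 CPM (SD, n = 3 each; 1.85-fold, log2 fold change 0.89, SE 0.0856, adjusted p = 5.71e-07, edgeR's quasi-likelihood test). Its neighbour Cmpk2, a nucleotide kinase that supplies the substrate of viperin, lies 12751 bases away with no protein-coding gene between them. Cmpk2 is not on the list of 41 and was singled out after its values were seen. It had 863, 918 and 884 counts against 1279, 1312 and 1422, a rise without overlap (31.9 ± 1.45 to 48.1 ± 2.84 CPM, n = 3 each, ± SD; log2 fold change 0.59, SE 0.0657, adjusted p = 2.65e-06, edgeR's quasi-likelihood test).

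Ifit2 fell while its neighbours on chromosome 19 could not be resolved. Ifit2, which binds RNA and limits its translation, had 2327, 2072 and 2172 counts after Luc siRNA and 1444, 1333 and 1526 after Crebl2 siRNA. The groups were well apart, at 78.7 ± 3.89 and 51.6 ± 3.51 CPM (SD, n = 3 each; 1.53-fold lower, log2 fold change -0.61, SE 0.0628, adjusted p = 1.21e-06, edgeR's quasi-likelihood test). Ifit1, the sensor of unmethylated RNA caps printed above with 2 matches in its promoter, had 18, 27 and 12 counts against 15, 12 and 24. Ifit3 was at 0.409 ± 0.135 and 0.3 ± 0.091 CPM (SD, n = 3 each), with a log2 fold change of -0.44 and an SE of 0.403. Ifit3 and Ifit3b are 98% identical over 1697 aligned bases and share 51.2% of the 50-base words of Ifit3, so reads of one cannot be separated from the other over much of their length.

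The ISG15 system showed a fall in its protease and no called change in its ligand. Usp18, which removes ISG15 from proteins and holds back signalling at IFNAR2, had 6224, 6677 and 6108 counts against 5089, 4870 and 4993. The groups did not overlap (228 ± 10.7 and 179 ± 3.46 CPM, n = 3 each, ± SD; log2 fold change -0.34, SE 0.0503, adjusted p = 4.52e-05, edgeR's quasi-likelihood test). Isg15, the ubiquitin-like protein itself, had 55, 75 and 68 counts against 59, 54 and 43, which overlap (log2 fold change -0.34, SE 0.19, adjusted p = 0.169, edgeR's quasi-likelihood test). The estimates of the pair were equal to the digits given, and Isg15 had far fewer counts behind its own. Uba7, the enzyme that activates ISG15, belongs to another list and fell by 0.63 on the log2 scale, with means of 63.7 ± 2.3 and 41.2 ± 4.79 CPM (SD, n = 3 each). Of other enzymes that attach ISG15, Herc6 fell less (log2 fold change -0.31) and Ube2l6 was not called (-0.14).

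Bst2 fell, and smaller falls were called for Ifitm2 and Ifitm3, while Ifitm1, of the same family, had too few counts to test. Bst2 had 7478, 8147 and 7429 counts against 6206, 6062 and 5652, without overlap (276 ± 15 and 215 ± 9.7 CPM, n = 3 each, ± SD; log2 fold change -0.36, SE 0.0538, adjusted p = 5.4e-05, edgeR's quasi-likelihood test). Ifitm3 was at 197, 211 and 205 CPM against 187, 173 and 184, and Ifitm2 at 108, 106 and 113 CPM against 104, 92.6 and 96. The groups did not overlap in either gene, by a margin within the spread between libraries (log2 fold changes -0.17 and -0.16, adjusted p = 0.0129 and 0.0319, edgeR's quasi-likelihood test). Neither call held with scaling by library size alone (adjusted p = 0.0571 for Ifitm3 and 0.119 for Ifitm2, edgeR's quasi-likelihood test) or without Crebl2 siRNA replicate 2 (0.102 and 0.192). Both calls were also lost without Luc siRNA replicate 3 (0.0506 and 0.149), that of Ifitm2 without Luc siRNA replicate 1 (0.0539) and with the replicate block (0.0621), and that of Ifitm3 without Luc siRNA replicate 2 (0.0723). Ifitm2 shares 48.5% of its 50-base words with other gene models, mostly the overlapping Gm45717, and 10% of those of Ifitm3 recur elsewhere.

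The other 3 calls were lost under several alternatives. Ifi44 had 184, 146 and 195 counts against 143, 110 and 147, which overlap (log2 fold change -0.39, SE 0.143, adjusted p = 0.0399, edgeR's quasi-likelihood test). Ifi35, a partner of NMI, was at 51, 54 and 52.1 CPM against 61.8, 55.5 and 58.5 (log2 fold change 0.16, adjusted p = 0.0396, edgeR's quasi-likelihood test). Lgals3bp, a secreted galectin ligand, was at 208, 216 and 225 CPM against 255, 240 and 224, with overlap (0.15, adjusted p = 0.0442, edgeR's quasi-likelihood test). The call of Ifi44 was lost without Luc siRNA replicate 1 (adjusted p = 0.0853), Luc siRNA replicate 3 (0.179) or Crebl2 siRNA replicate 2 (0.201). It was also lost by DESeq2 (0.0553) and with library size alone (0.0732). That of Ifi35 was lost without any 1 of the control libraries (0.13, 0.0657 and 0.122 for replicates 1 to 3) or Crebl2 siRNA replicate 1 (0.127), and that of Lgals3bp without any 1 library other than Crebl2 siRNA replicate 3 (0.0595 to 0.157). Both were also lost with the replicate block (0.0862 and 0.0948) and with no low-count filter (0.0801 and 0.0525).

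Other classical effectors did not pass the test. The oligoadenylate synthetases make the messenger that activates RNase L: Oas1a was at 14.3 ± 1.01 and 14.7 ± 0.191 CPM, and Oasl2, a relative, at 38.9 ± 1.59 and 36.4 ± 1.62 CPM (SD, n = 3 each). Of the words of Oas1a, 57.6% recur in Oas1g, so these paralogues are not separated, whereas Oasl1 and Oasl2 share none. Mx1, a GTPase that blocks influenza viruses, had 11, 13 and 9 counts against 17, 9 and 12, and 4.77% of its words recur in Mx2, to which it is 79% identical over 2279 aligned bases. Parp14, Dtx3l and Parp9, a group of ADP-ribosylation and ubiquitin enzymes on chromosome 16, had log2 fold changes of 0.01, -0.05 and 0.18, all uncalled.

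Of the antigen presentation genes among the 41, B2m and Tap1, neither passed the test. B2m was at 1671, 1741 and 1662 CPM after Luc siRNA and 1453, 1525 and 1647 after Crebl2 siRNA. The groups did not overlap, by a narrow margin, and the log2 fold change of -0.13 had an adjusted p of 0.0515 by edgeR's quasi-likelihood test, 0.0467 by DESeq2, 0.0281 by limma-voom, and 0.00421 without Crebl2 siRNA replicate 3 (edgeR). Tap1, the peptide transporter, was at 1.55 ± 0.302 and 1.61 ± 0.0456 CPM (SD, n = 3 each), from 127 bases of its own.

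Genes that lie side by side did not always share a call (the plot of neighbouring genes). These clusters were chosen after the values were seen. Rsad2 and Cmpk2 both rose, Ifi27l2a and Ifi27l2b both fell, and in the Oas cluster on chromosome 5 Oas3 fell (log2 fold change -0.29, adjusted p = 0.0429, edgeR's quasi-likelihood test) while Oas1c (0.17) and Oas1g (0.38) were uncalled. In the receptor cluster on chromosome 16, Ifngr2, a chain of the interferon-gamma receptor, fell (means of 124 ± 6.12 and 102 ± 3.39 CPM, SD, n = 3 each, with a log2 fold change of -0.28 and adjusted p = 0.000712, edgeR's quasi-likelihood test), and so did Il10rb (-0.16). Beside them Ifnar2 (-0.34) and Ifnar1 (-0.14) were uncalled, but their estimates were also below 0, so this cluster shows no difference in direction. The calls of Oas3 and Il10rb were lost by DESeq2, with library size alone and without several single libraries, whereas that of Ifngr2 was not lost under any alternative.

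**Figure D4:**
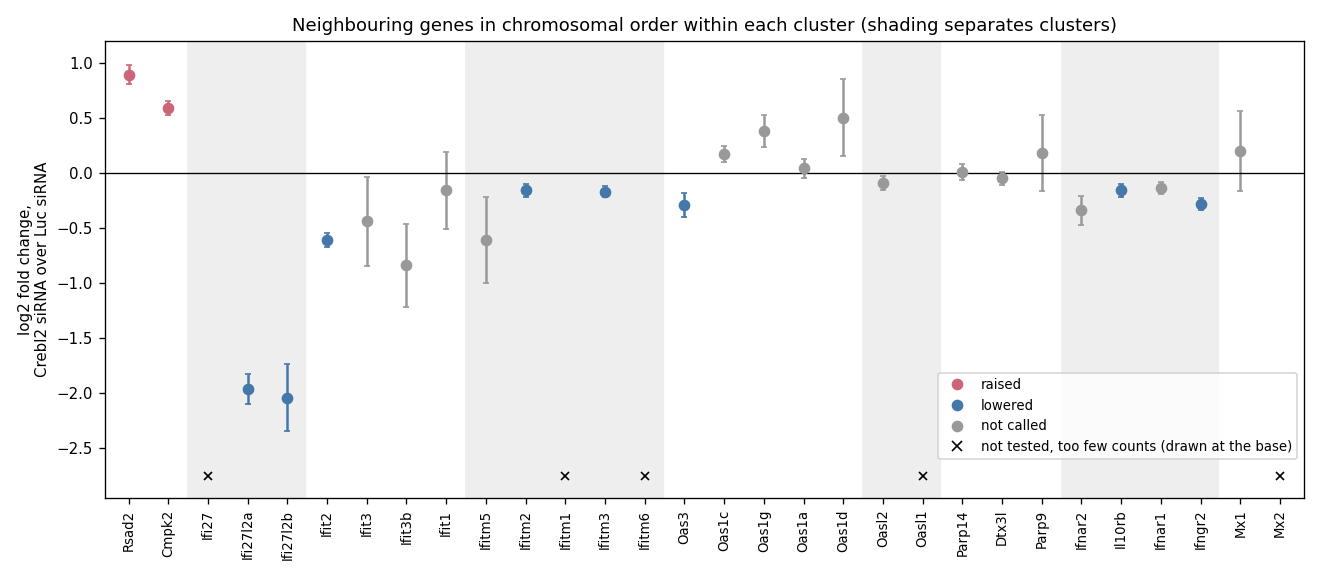
Log2 fold change (Crebl2 siRNA over Luc siRNA, bars of 1 standard error) of neighbouring genes in chromosomal order, with shading between clusters and crosses at the base for genes with too few counts to test. Rsad2 and Cmpk2 lie above 0, Ifi27l2a and Ifi27l2b near -2, and the Ifit, Oas and receptor clusters mix called and uncalled genes.

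The 9 lists of related genes held more falls than rises. Over all of them, 103 of 149 genes were tested, and 12 were raised and 38 lowered (11.7% and 36.9%, against 18.8% and 20.1% of all tested genes), with a median log2 fold change of -0.12. With library size alone as scaling 18 were raised and 29 lowered (17.5% and 28.2%, against 23.6% and 16.5% of all tested genes). Without Crebl2 siRNA replicate 2 these counts were 13 and 33 (12.6% and 32%, against 14.8% and 16.2%). Of 9 tested genes of endosomal and Toll-like sensing, 4 fell (44.4%, against 20.1% of all tested genes) and none rose, with a median of -0.27. The falls included the ubiquitin ligase Traf6 (-0.35), Tlr2 (-0.32) and Ticam1 (-0.31), the adaptor of TLR3. Among 13 RIG-I and MAVS signalling partners, 2 rose and 3 fell (15.4% and 23.1%, against 18.8% and 20.1% of all tested genes), with a median of 0.05. Rnf135, a ubiquitin ligase that activates RIG-I, rose by 0.38 on the log2 scale, with means of 28.7 ± 0.322 and 37.5 ± 0.774 CPM (SD, n = 3 each), while the kinase Ikbke (-0.70) and the scaffold Tank (-0.55) fell. In cytosolic DNA sensing 1 of 7 rose, Ifi204 (0.41), and 4 fell (14.3% and 57.1%, against 18.8% and 20.1% of all tested genes). Rnaseh2c (-0.45) and Tmem173, which encodes STING (-0.18), were among the falls. With library size alone 2 fell, and the call of Tmem173 was lost then and without Crebl2 siRNA replicate 2.

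Downstream of interferon, 8 of 12 tested genes of receptor and JAK-STAT signalling fell and 1 rose (median -0.21; 66.7% and 8.33%, against 20.1% and 18.8% of all tested genes). With library size alone 5 fell and 2 rose, where 16.5% of all tested genes fell and 23.6% rose. Ifngr1 had means of 298 ± 1.49 and 225 ± 10.6 CPM (SD, n = 3 each), a fall by 0.41 on the log2 scale. Socs1, an inhibitor of JAK kinases, rose by 0.64, with means of 5.09 ± 0.205 and 7.91 ± 0.323 CPM. Other inhibitors in that list did not rise with it. Socs3 (-0.23, from 164 ± 6.44 to 140 ± 9.07 CPM) and Pias1 (-0.26) fell, and Ptpn2 (0.09) and Ptpn6 (0.02) were not called. Of 6 other interferon regulatory factors and their partners, 1 rose and 2 fell (16.7% and 33.3%, against 18.8% and 20.1% of all tested genes). Irf8 rose (0.46), and Irf2bp2 (-0.25) and Irf2bp1 (-0.18) fell. The call of Irf2bp1 was lost with library size alone and without any 1 library other than Crebl2 siRNA replicate 1. Among 14 genes of double-stranded RNA binding and eIF2 kinases, 3 rose and 2 fell (21.4% and 14.3%, against 18.8% and 20.1% of all tested genes). Their median was 0.05. Dicer1 rose (0.29), and the kinase PERK (Eif2ak3, -0.40) and the PKR activator Prkra (-0.33) fell. With library size alone 5 rose and 2 fell, where 23.6% of all tested genes rose and 16.5% fell. Of 29 other interferon-stimulated genes, 12 fell and 3 rose (41.4% and 10.3%, against 20.1% and 18.8% of all tested genes), with a median of -0.14. With library size alone 10 fell and 6 rose, where 16.5% of all tested genes fell and 23.6% rose. Slfn2 (-0.65), Cmpk2 (0.59) and Uba7 (-0.63) had the smallest p, and Ccl5 (-1.23), a chemokine named after its values were seen, had the largest called change of that list. In class I antigen presentation 3 of 13 fell and 1 rose (23.1% and 7.69%, against 20.1% and 18.8% of all tested genes), with a median of -0.07. The loading factor Tapbp (-0.47) and Canx (-0.74) were among the falls, and Erap1 rose (0.36). Canx rested on low counts, with means of 4.05 ± 0.369 CPM after Luc siRNA and 2.42 ± 0.461 after Crebl2 siRNA (SD, n = 3 each). The bases unique to its transcripts are not given here, so its fall may not stand for the whole gene.

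**Figure D5:**
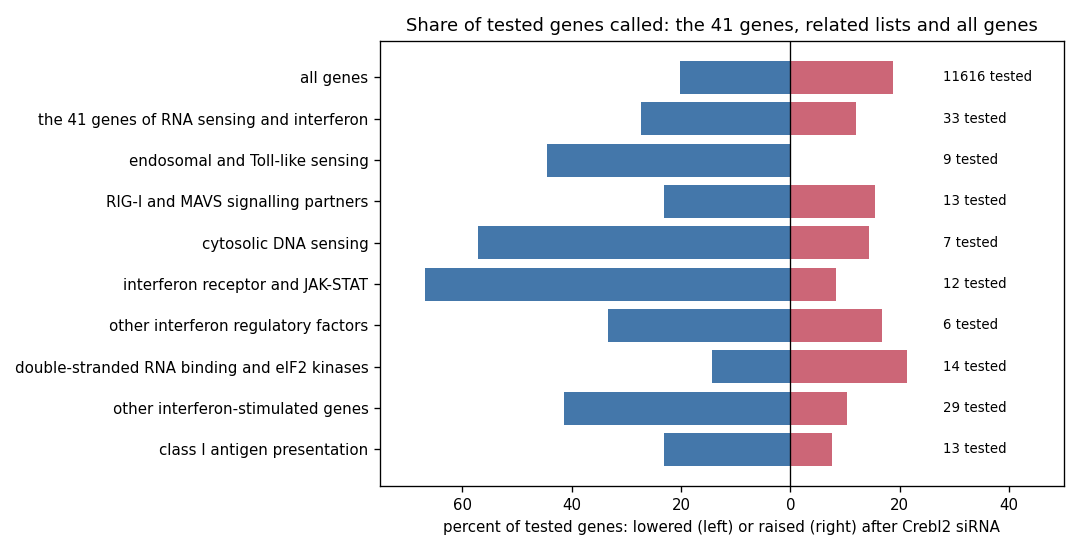
Percent of tested genes lowered (left) or raised (right) after Crebl2 siRNA, for all 11616 tested genes, the 41 genes described here and 8 related lists, each with the number tested at the right. The list of 41 genes lies at 27.3% lowered and 12.1% raised, near the 20.1% and 18.8% of all genes, and the lowered share of receptor and JAK-STAT signalling is 66.7% of 12 genes.

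One sequence feature of the whole table was looked up for these genes, since it was known from earlier results of these data. Only tested genes with an annotated 3′ UTR were searched. The 7-base word GAAATGT stood in the 3′ UTR of 29.2% of 2181 lowered genes, 16.5% of 5795 uncalled genes and 11.9% of 1890 raised genes. These shares take no account of UTR length. Among the 41 genes it was present in 1 of 9 lowered genes, Ifit2, in 6 of 20 uncalled genes (Irf9, Irf1, Eif2ak2, Ifih1, Parp14 and Isg15) and in none of the 4 raised genes. The sequences of the siRNAs are not given in the sources used here, and the part of this word in the falls was not tested.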

How the data were processed

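The deposited values are read counts per Ensembl transcript, not normalised, 58611 rows in each of 6 libraries. The submitters' processing notes list Trim Galore, TopHat, HTSeq and the builds mm9 and GRCm38, giving neither versions nor roles. How strand and reads on several transcripts were handled is not stated there, so genes with antisense partners, among them Dhx58, Usp18, Eif2ak2 and Ifi35, are uncertain. Counts were summed per gene through GENCODE M21 (58264 rows matched, 347 did not and held at most 0.0497% of a library). The main test was edgeR 4.0.16 (quasi-likelihood, two-sided, TMM scaling, filterByExpr, Benjamini-Hochberg over 11616 genes, called at adjusted p under 0.05), and CPM used TMM-scaled library sizes. DESeq2 1.42.0, limma 3.58.1 (voom), other scalings and filters, a single transcript row per gene, a replicate block and leaving out each library were alternatives. The steps were tested on simulated data. The 41 genes and all lists were chosen with earlier results of these data known. Named genes are Crebl2, the 41 genes and up to 3 called genes with the smallest p of each related list; Irf8 also stands among the dendritic cell markers. Other genes named were chosen after their values were seen. Reads carry no molecular identifiers, so intervals and floors cover counting error only.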

Additional observations from a re-analysis of the deposited data

How the results depend on the processing

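Of the 13 called genes, 8 kept their call and direction under all 14 alternatives (Ddx58, Dhx58, Ifit2, Rsad2, Usp18, Ifi27l2a, Ifi27l2b and Bst2), 5 lost it under at least 1 (Ifi35, Ifi44, Ifitm2, Ifitm3 and Lgals3bp), and none reversed. Of 20 uncalled genes, 4 were called under at least 1 alternative (Irf9, Ifnar1, Ifnar2 and B2m). Genes of the list that changed numbered 8 to 15 when 1 library was left out (24.2% to 44.1%, against 30.6% to 39% of all tested genes). In these fits 2 to 4 were raised (5.88% to 11.8%, against 14.2% to 18.9%) and 6 to 11 lowered (17.6% to 32.4%, against 16.2% to 20.2%). The fewest, 8, were called without Luc siRNA replicate 3. Raised genes numbered 2 with no low-count filter (5.41%, against 10.4% of all tested genes) and 2 with the replicate block (6.06%, against 16.2%), where the main test had 4. With scaling by library size alone, 2741 of all genes were raised and 1920 lowered, against 2180 and 2338, and 6 of the list were lowered. The labels do not say whether replicate numbers pair the samples. Deviations from the group mean correlated at -0.25, -0.09 and -0.15 for same-numbered libraries and at -0.06 to 0.18 for the others, over 8675 genes. With 3 libraries per group these values cannot decide whether same-numbered libraries shared a batch. The replicate block left 10 genes of the list and 3983 of all genes called, against 13 and 4518. Directions that reversed were those of uncalled genes, and the cause was not tested. Eif2ak2 was at -0.0010 (log2) with no low-count filter, and Dtx3l at 0.0006 with library size alone. With 1 library left out, log2 fold changes ran from -0.59 to 0.09 for Mavs, -0.05 to 0.04 for Eif2ak2, -0.02 to 0.52 for Irf7, -0.49 to 0.18 for Ifit1, -0.0098 to 0.09 for Oas1a, -0.06 to 0.40 for Mx1, -0.14 to 0.47 for Parp9, -0.05 to 0.10 for Parp14 and -0.08 to 0.21 for Tap1. The counts of related genes and of roles with library size alone and without Crebl2 siRNA replicate 2 were chosen after seeing the data. Depth limits what can be said of genes with under 100 counts in all and of those with few bases of their own.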
